A study of Saccharomyces cerevisiae with 6 samples.

Results

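The 9 nuclear genes for structural subunits of yeast cytochrome c oxidase, COX4, COX5A, COX5B, COX6, COX7, COX8, COX9, COX12 and COX13, were followed through an RNA co-immunoprecipitation with J2, an antibody against double-stranded RNA (dsRNA). They were taken by name among the nuclear protein-coding entries of the table, and all 9 of 9 were found among its 15753 features. Total RNA came from wild-type Saccharomyces cerevisiae S288C that had received no treatment. The 3 J2 eluate libraries were made from RNA released by the J2-bound beads, and the 3 J2 unbound libraries from the supernatant that remained after a further round of J2 and beads. The labels number the libraries of each group from 1 to 3, and the study's methods describe these replicates as biologically independent.

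Cytochrome c oxidase is the last complex of the respiratory chain and passes electrons from cytochrome c to oxygen in the inner mitochondrial membrane. Its catalytic core of Cox1, Cox2 and Cox3 is encoded in mitochondrial DNA, while the surrounding subunits are made in the cytoplasm from nuclear mRNAs and imported. COX5A and COX5B are a duplicated gene pair for alternative isoforms of subunit V, of which COX5A is used in well-aerated cells and COX5B when oxygen is scarce. An antisense RNA (asRNA) is transcribed from the DNA strand opposite a gene and can base-pair with its mRNA. Many non-coding yeast RNAs lie opposite genes, among them the cryptic unstable transcripts (CUTs), the stable but unannotated ones (SUTs) and the XUTs, which the exonuclease Xrn1 degrades.

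Most of these mRNAs had lower normalised counts in the J2 eluates than in the J2 unbound libraries. COX9, COX13, COX7, COX12, COX5A, COX8 and COX6 were reduced in the eluates, by 2.28 to 10.9 times, and COX5B and COX4 were not called in either direction. Thus 7 of 9 mRNAs were reduced and 0 were enriched (limma on log2(normalised count + 1), Benjamini-Hochberg over all features, adjusted p under 0.05). Among all 5703 nuclear mRNAs with a mean normalised count above 40, 74.7% were reduced and 7.73% enriched (48% and 34.6% of all 10188 features above that mean), so the share of reduced subunit mRNAs lay near that of nuclear mRNAs at large. The median log2 fold change, always eluate over unbound, was -2.12 over the 9 members, -1.40 over nuclear mRNAs and -0.46 over all features. The same 7 mRNAs had all 3 eluates below all 3 unbound libraries, as did 76.2% of nuclear mRNAs, and no member had all eluates above, as 8.49% did.

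These directions are relative to the deposited size factors. Scaling on the total count moved the median of the nuclear mRNAs to -0.48 and that of the members to -1.20, and scaling on nuclear mRNAs alone moved them to -0.08 and -0.80. Under either of these scalings COX4 and COX5B were called enriched, COX6 and COX8 were not called, and COX5A, COX7, COX9, COX12 and COX13 kept the reduced call. COX6 changed sign under the mRNA scaling, to 0.13. The nuclear mRNAs then split into 21.3% enriched and 49% reduced with the total count, and into 32.8% enriched and 37.6% reduced with the mRNA factors. Ratios within a library are used below for pairs of members and for the 2 strands of a gene. They do not depend on the scaling, except through the 1 added to each normalised count before the log2 ratio. That addition matters for opposite-strand features with few reads.

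**Figure D1:**
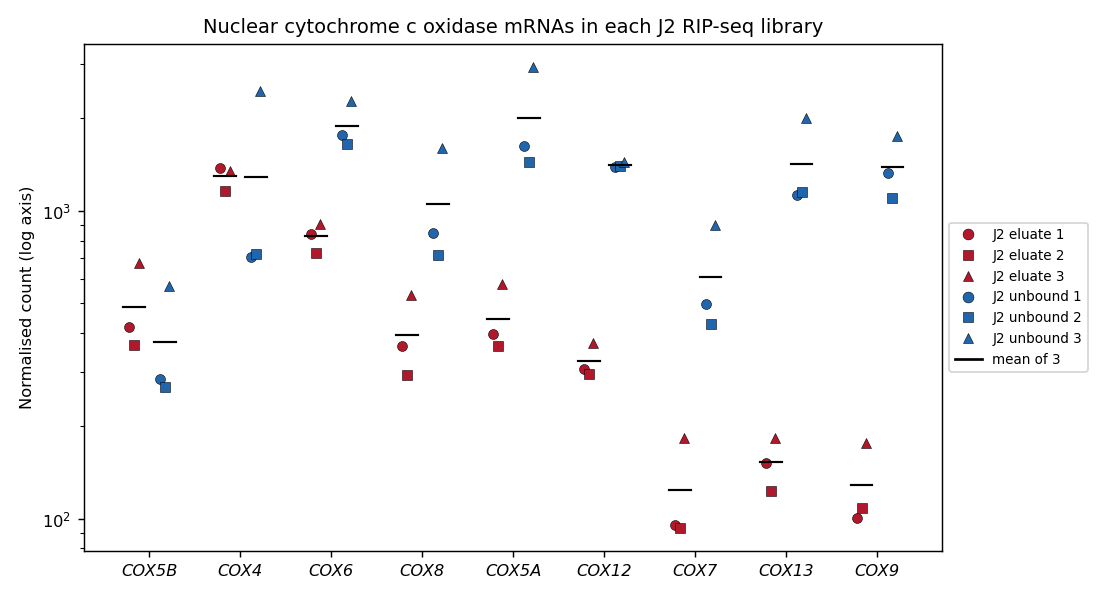
Normalised count of each member mRNA (log axis) in the 3 J2 eluate libraries (red, left) and the 3 J2 unbound libraries (blue, right), with replicate numbers as symbols and the mean of 3 as a bar. The groups overlap for COX5B and COX4 and are separate for the other 7, and unbound 3 is the highest unbound library for all 9.

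Feature counts per library ranged from 18645818 in unbound 2 to 43141091 in eluate 1, and the lowest number of reads behind any member in any library was 151, for COX5B in unbound 2. Unbound 3 held the highest unbound value of all 9 members, at a median of 1.91 times the mean of the other unbound libraries, whereas the median over nuclear mRNAs was 1.09 times. Eluate 3 was likewise the highest eluate for 8 of 9 members, at a median of 1.52 times the other eluates, against 1.07 for nuclear mRNAs. What these same-numbered libraries share was not tested. Together the 9 mRNAs took 0.0191%, 0.0210% and 0.0292% of the counts in eluates 1 to 3 (95% Wilson intervals 0.0187% to 0.0195%, 0.0204% to 0.0215% and 0.0285% to 0.030%), against 0.0270%, 0.0268% and 0.0456% in unbound 1 to 3 (0.0263% to 0.0277%, 0.0261% to 0.0276% and 0.0448% to 0.0465%). The shares of the groups overlapped, while in each same-numbered pair the eluate had the lower share. The intervals cover counting error only.

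COX9 encodes subunit VIIa, one of the smallest subunits and a single-span membrane protein. Its gene (YDL067C) lies on chromosome IV at 333973 to 334633 of sacCer3, minus strand, and its mRNA was the most strongly reduced of the 9. The whole coding sequence, 180 bases, is shown from the RefSeq R64 genome, whose sequence is that of sacCer3, with the start and stop codons in capitals, because hardly any RNA was counted opposite it:
COX9 coding sequence, chrIV:334217-334396, minus strand: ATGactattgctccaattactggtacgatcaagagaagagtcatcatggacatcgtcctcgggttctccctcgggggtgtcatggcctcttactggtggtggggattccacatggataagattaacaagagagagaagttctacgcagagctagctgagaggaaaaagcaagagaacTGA
COX9 had 101, 108 and 175 normalised counts in eluates 1 to 3, against 1324, 1097 and 1746 in unbound 1 to 3. Every eluate was far below every unbound library. The log2 fold change was -3.45 (limma, SE 0.258, adjusted p = 1.94e-06), and 4.07% of nuclear mRNAs had a lower one.

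COX13 encodes subunit VIa, which modulates the activity of the enzyme. Its gene (YGL191W) lies on chromosome VII at 144689 to 145645, plus strand. The mRNA had 151, 123 and 183 normalised counts in the eluates, against 1123, 1146 and 1995 in the unbound libraries. The groups were far apart, with a log2 fold change of -3.18 (limma, SE 0.257, adjusted p = 3.11e-06), and 6.40% of nuclear mRNAs had a lower value.

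COX7, COX8 and COX12 code for further small subunits. COX7 (subunit VII, YMR256C, chromosome XIII, 778510 to 779194, minus strand) was the least abundant mRNA of the 9 by mean count, with 95.4, 93.3 and 183 normalised counts in the eluates, against 499, 429 and 900 in the unbound libraries. Its groups did not overlap, and its log2 fold change was -2.28 (limma, SE 0.338, adjusted p = 0.000177). COX12 (subunit VIb, YLR038C, chromosome XII, 224597 to 225252, minus strand), on the intermembrane space side of the complex, had 307, 294 and 371 in the eluates, against 1383, 1401 and 1443 in the unbound libraries. COX12 varied least among the unbound libraries, where unbound 3 was 1.04 times the mean of the others, and had a log2 fold change of -2.13 (limma, SE 0.165, adjusted p = 2.41e-06). COX8 (subunit VIII, YLR395C, chromosome XII, 909195 to 910019, minus strand) had 362, 292 and 531 normalised counts in the eluates, against 849, 719 and 1597 in the unbound libraries. Its log2 fold change of -1.37 (limma, SE 0.316, adjusted p = 0.00304) lay at the middle of the nuclear mRNAs, of which 51.2% were lower.

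COX6 encodes subunit VI, which faces the matrix and whose gene is activated by the HAP complex, a switch of respiratory genes. The gene (YHR051W) lies on chromosome VIII at 209705 to 210451, plus strand. Its mRNA had 839, 730 and 906 normalised counts in the eluates, against 1758, 1642 and 2271 in the unbound libraries. The eluates lay below the unbound libraries without overlap, with a log2 fold change of -1.19 (limma, SE 0.182, adjusted p = 0.000224). This was less negative than the median of nuclear mRNAs, with 56.7% of them lower.

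COX4 encodes subunit IV, a zinc-binding protein on the matrix side. Its gene (YGL187C) lies on chromosome VII at 149517 to 150221, minus strand. The mRNA had 1374, 1159 and 1344 normalised counts in the eluates, against 706, 725 and 2439 in the unbound libraries. All 3 eluates were above unbound 1 and 2 and below unbound 3, in which COX4 was 3.41 times the mean of the other unbound libraries. The log2 fold change was 0.26 (limma, SE 0.409, adjusted p = 0.580, 95% interval -0.66 to 1.17). On reads recovered from these counts, DESeq2 gave 0.0019 and edgeR 0.18, and neither called COX4. Without unbound 3 the limma value was 0.85 and called enriched (limma adjusted p = 0.00250), without unbound 1 it was -0.045 and without unbound 2 it was -0.026, so a single library set the call. Of all nuclear mRNAs, 89.0% had a lower value than COX4.

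COX5B had 419, 366 and 674 normalised counts in the eluates, against 283, 267 and 570 in the unbound libraries. The eluate was the higher library in each same-numbered pair, by 0.56, 0.45 and 0.24 on the log2 scale, but the groups overlapped because replicate 3 was high in both. The log2 fold change was 0.42 (limma, SE 0.324, adjusted p = 0.263), and 90.7% of nuclear mRNAs were lower. With the replicate number as a block the same value was called enriched (limma adjusted p = 0.0401), as it was without unbound 3 (0.77, limma adjusted p = 0.0339).

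**Figure D2:**
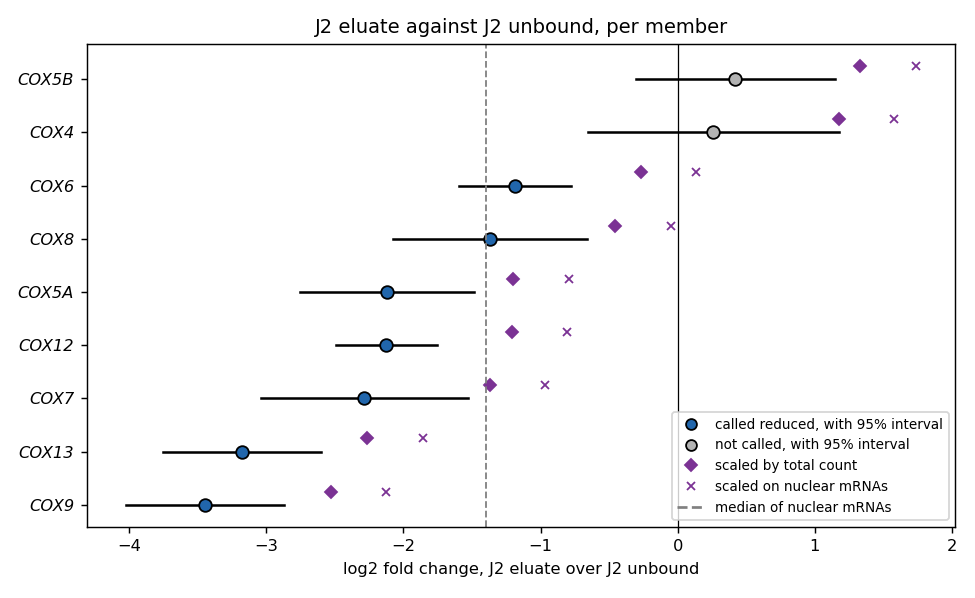
The log2 fold change of each member, J2 eluate over J2 unbound (circles, with 95% intervals from limma), beside its value when libraries are scaled by total count (diamonds) or on nuclear mRNAs (crosses). COX5B (0.42) and COX4 (0.26) lie to the right of 0 and COX9 (-3.45) farthest to the left, and the dashed line marks the median of nuclear mRNAs (-1.40).

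The duplicated pair was then compared within libraries. COX5A (YNL052W, chromosome XIV, 531679 to 532563, plus strand) had 397, 362 and 579 normalised counts in the eluates, against 1620, 1442 and 2928 in the unbound libraries. Its log2 fold change was -2.12 (limma, SE 0.284, adjusted p = 9.06e-05). COX5B (YIL111W, chromosome IX, 155128 to 156003, plus strand) carries an intron of 88 bases that splits its start codon, the feature that sets its gene structure apart from COX5A. The split start codon is in capitals, followed by the first codons of the second exon:
COX5B, chrIX:155222-155340, plus strand: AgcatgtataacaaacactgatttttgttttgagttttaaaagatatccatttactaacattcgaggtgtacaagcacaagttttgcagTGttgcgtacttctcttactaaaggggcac
The coding sequences of the pair, 462 bases in COX5A and 456 in COX5B, were identical at 69.3% of 446 aligned positions. The longest run they share, 12 bases, is in capitals in the stretches below, which show how soon the sequences part and that a 50-base read can tell the genes apart:
COX5A, chrXIV:531931-532022, plus strand: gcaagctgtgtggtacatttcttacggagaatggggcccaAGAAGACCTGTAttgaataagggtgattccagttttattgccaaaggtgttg
COX5B, chrIX:155507-155598, plus strand: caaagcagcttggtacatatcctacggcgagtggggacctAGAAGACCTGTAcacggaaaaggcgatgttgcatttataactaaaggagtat
Every 50-base window of all 9 member mRNAs occurs no more than once in the genome (100%). Windows across the splice junction of COX5B, which the genome does not hold, were counted among these.

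In the eluates the isoform mRNAs were about equally frequent, with 0.948, 0.990 and 0.859 COX5A counts per COX5B count in eluates 1 to 3, against 5.73, 5.39 and 5.14 in unbound 1 to 3. Replicates were close together and the groups far apart. The mean log2 ratio was -0.10 ± 0.11 in the eluates and 2.43 ± 0.08 in the unbound libraries (SD, n = 3 each), a difference of -2.54. In an exact permutation test, two-sided, p was 0.1, the smallest that 3 against 3 libraries allow. Per kb of exons the ratio was 0.817 in the eluates and 4.76 in the unbound libraries.

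Across all 36 pairs of members, the within-library log2 ratios of the groups did not overlap for 29, again with exact p = 0.1 at the least and a lowest adjusted p of 0.124. Over all pairs of nuclear mRNAs above the mean of 40, the groups did not overlap for 73.5%, so that the members' share lay near that of the table. Among the 8 neighbours in the order of fold changes, the ratio separated the groups for 3, COX4 over COX6, COX8 over COX5A and COX7 over COX13. The neighbours COX5B and COX4, COX6 and COX8, COX5A and COX12, COX12 and COX7, and COX13 and COX9 overlapped. Between same-numbered libraries, however, COX6 over COX8 was higher in all 3 eluates (by 0.16, 0.13 and 0.26), so that an overlap of the groups does not show that these neighbours were alike.

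Levels were compared between genes as normalised counts per kb of exons. In the eluates COX4 was highest, at 1833 per kb, followed by COX6 (1104), COX5B (617), COX5A (504), COX12 (494), COX8 (479), COX9 (194), COX7 (181) and COX13 (159), a span of 11.5 times. In the unbound libraries COX6 was highest, at 2531 per kb, followed by COX5A (2256), COX12 (2148), COX9 (2101), COX4 (1830), COX13 (1485), COX8 (1279), COX7 (889) and COX5B (474), a span of 5.34 times. COX5B was thus the lowest of the 9 in the unbound libraries and had a higher eluate level than 6 others. In the eluates the ranges of neighbours in this order did not overlap between COX4 and COX6, COX6 and COX5B, and COX8 and COX9, while in the unbound libraries the ranges of all 8 neighbours overlapped. The unbound level per kb and the log2 fold change were weakly related over the members (Spearman's rho -0.12, Pearson's r -0.32, n = 9 genes in the same libraries), where the 5703 nuclear mRNAs had -0.40 and -0.12. So were exon length (0.18 and -0.10, against 0.05 and 0.02 over nuclear mRNAs) and GC content (0.28 and 0.31). The unbound level is itself part of the log2 fold change, with the opposite sign, so a negative relation between these quantities is partly built in.

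**Figure D3:**
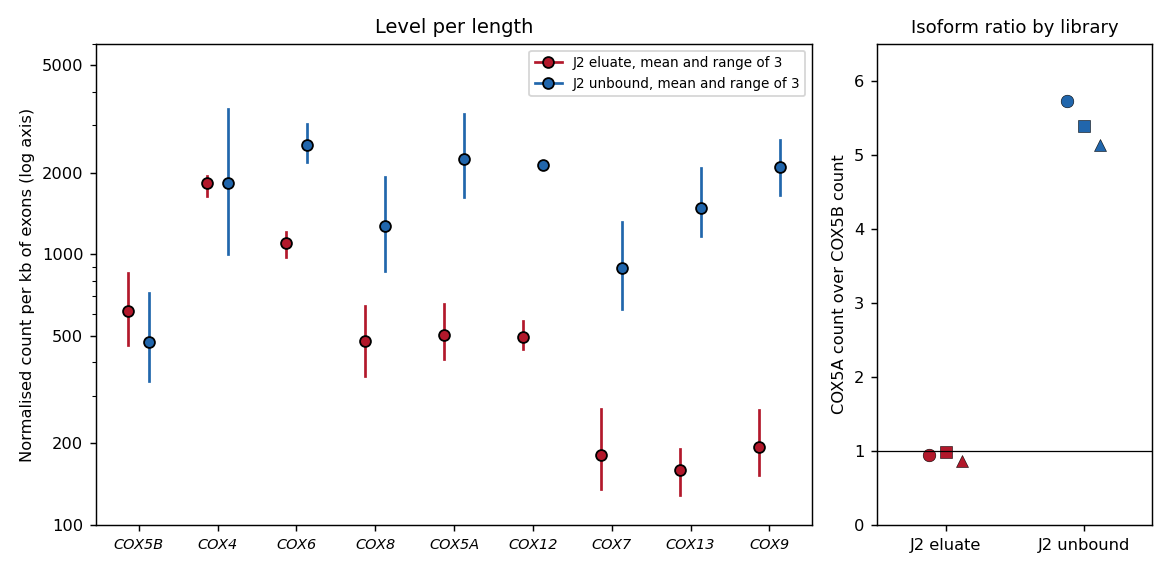
Left, normalised count per kb of exons (log axis) of each member in J2 eluate (red, left) and J2 unbound (blue, right) libraries, as the mean and range of 3. Right, COX5A counts over COX5B counts in each library, which lay between 0.859 and 0.990 in the eluates and between 5.14 and 5.73 in the unbound libraries.

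As J2 binds paired strands, the features annotated on the strand opposite each member were examined. The kit named for the libraries does not mark strand in its standard protocol and the strand setting of the counting is not given in the sources used here, although the counts kept the strands of COX12 apart, as given for that gene. There were 23 non-coding and 4 coding features, and 19 of the 23 non-coding ones had a mean normalised count above 40. Of these 19, 17 were enriched in the eluates and 0 reduced, and the other two, SUT250 and XUT_12F-85 opposite COX12, were not called. However, 10 of the 19 passed that mean only through the eluates and had to be higher there, so the count is no support for enrichment. These 10 were XUT_7F-64, YGL187C-as, antisense1735, XUT_14R-223, antisense974, antisense5034, antisense3078, Unit250, XUT_12F-86 and antisense2927. Their fold changes and p-values below are descriptions only. With an unbound mean above 40 required, 7 of 9 were enriched and 0 reduced, where 52% of all features other than mRNAs that met this were enriched and 22.4% reduced. Among all features other than mRNAs above that mean, 68.6% were enriched and 14.2% reduced, and 69.7% had every eluate above every unbound library, against 14.9% with every eluate below. Features opposite the same member overlap each other and can hold the same reads, so that their values are not independent.

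The short asRNA YGL187C-as lies wholly within the coding sequence of COX4, over 209 bases. That stretch is shown in the sense direction of COX4, because it marks the part of COX4 that this asRNA could pair with:
COX4 opposite YGL187C-as, chrVII:149709-149917, minus strand: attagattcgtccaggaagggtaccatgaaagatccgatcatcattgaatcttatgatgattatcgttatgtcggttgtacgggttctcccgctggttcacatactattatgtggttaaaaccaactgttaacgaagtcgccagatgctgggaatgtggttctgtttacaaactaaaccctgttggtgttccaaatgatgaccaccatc
YGL187C-as had 143, 122 and 127 normalised counts in the eluates, against 7.44, 1.77 and 3.87 in the unbound libraries, with a log2 fold change of 4.76 (limma, SE 0.430, adjusted p = 6.1e-06). Its unbound values rest on 5, 1 and 3 reads. XUT_7F-64, which covers the whole coding sequence of COX4, had 626, 649 and 564 in the eluates, against 34.3, 14.2 and 15.5 in the unbound libraries. The longer antisense1735 at the same gene had 579, 595 and 567 in the eluates, against 35.7, 40.7 and 32.2 in the unbound libraries. All 3 RNAs were more abundant in every eluate than in any unbound library, and all 3 passed the mean of 40 only through the eluates.

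Relative to their mRNA, the asRNAs at COX5B had the highest unbound levels among the paired asRNAs, those that overlap a member by at least 0.5 of either feature. XUT_9R-63, over 807 bases of the COX5B gene, had 586, 649 and 939 normalised counts in the eluates, against 174, 170 and 223 in the unbound libraries, with a log2 fold change of 1.91 (limma, SE 0.224, adjusted p = 3.52e-05). Its count amounted to 140%, 177% and 139% of the COX5B count in eluates 1 to 3, against 61.6%, 63.6% and 39.1% in unbound 1 to 3. Here and below, such percentages compare counts of whole features and are not scaled by length. XUT_9R-63 spans 1731 bases, of which 46.6% lie over COX5B, and COX5B has 788 bases of exons. A value above 100% therefore does not show more asRNA than mRNA per length. SUT609, Unit177 and YIL111W-as, on the same strand, had log2 fold changes of 2.13, 2.23 and 2.20, and stood at 15.2% to 41.6% of COX5B in the unbound libraries. At the genes of COX4, COX5A, COX6, COX8 and COX12, no paired asRNA exceeded 5.62% of its mRNA in any unbound library. Unit279 overlaps COX8 by less than 0.5 of either feature and is not a paired asRNA. Its count stood at 149%, 213% and 174% of that of COX8 in eluates 1 to 3, against 11.6%, 13.1% and 6.94% in unbound 1 to 3. Of the 1998 bases of Unit279, 17.1% lie over COX8, so its count can come largely from outside that gene.

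COX5A, reduced in the eluates, had asRNAs as well. XUT_14R-223, which spans the entire gene, had 227, 222 and 323 normalised counts in the eluates, against 14.9, 24.8 and 33.5 in the unbound libraries. That was 57.1%, 61.4% and 55.7% of COX5A in the eluates, against 0.919%, 1.72% and 1.14% in the unbound libraries. antisense974, which also spans COX5A and can hold the same reads, had 235, 225 and 337 normalised counts in the eluates, against 16.4, 26.6 and 32.2 in the unbound libraries, with a log2 fold change of 3.38 (limma, SE 0.309, adjusted p = 6.61e-06). The asRNA of COX6, antisense5034, also spans its gene and had 447, 403 and 484 normalised counts in the eluates, against 14.9, 12.4 and 14.2 in the unbound libraries. Its log2 fold change of 4.91 (limma, SE 0.234, adjusted p = 2.78e-07) was the highest of the features opposite a member, and it stood at 53.3%, 55.2% and 53.4% of COX6 in the eluates, against 0.847%, 0.755% and 0.624% in the unbound libraries.

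At COX12, XUT_12F-86 covered all of the coding sequence and had 173, 114 and 146 normalised counts in the eluates, against 4.47, 7.09 and 5.15 in the unbound libraries. In the unbound libraries these were 3, 4 and 4 reads, opposite 929, 791 and 1120 reads of COX12, so that at this gene the counts of the 2 strands were kept apart to 0.506% or better. Unit250, also over all of the coding sequence, and YLR038C-as gave log2 fold changes of 4.33 and 1.37. SUT250 had 44.2, 35.7 and 48.5 in the eluates, against 62.5, 39.0 and 42.5 in the unbound libraries, and XUT_12F-85 had 41.3, 36.3 and 45.1 in the eluates, against 68.5, 40.7 and 43.8 in the unbound libraries. Both reach only the part of the COX12 gene beyond its coding sequence, and their groups overlapped. antisense2927, mostly outside COX12, had a log2 fold change of 2.74.

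COX8 lay opposite antisense3078, with 87.0, 93.3 and 151 normalised counts in the eluates, against 5.96, 1.77 and 5.15 in the unbound libraries. Unit279 and XUT_12F-359 cover the coding sequence of COX8 from one end and run on beyond it, with log2 fold changes of 2.74 and 2.83. COX7 had no non-coding feature on the other strand, and those of COX9 (1) and COX13 (2) did not reach the mean of 40.

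**Figure D4:**
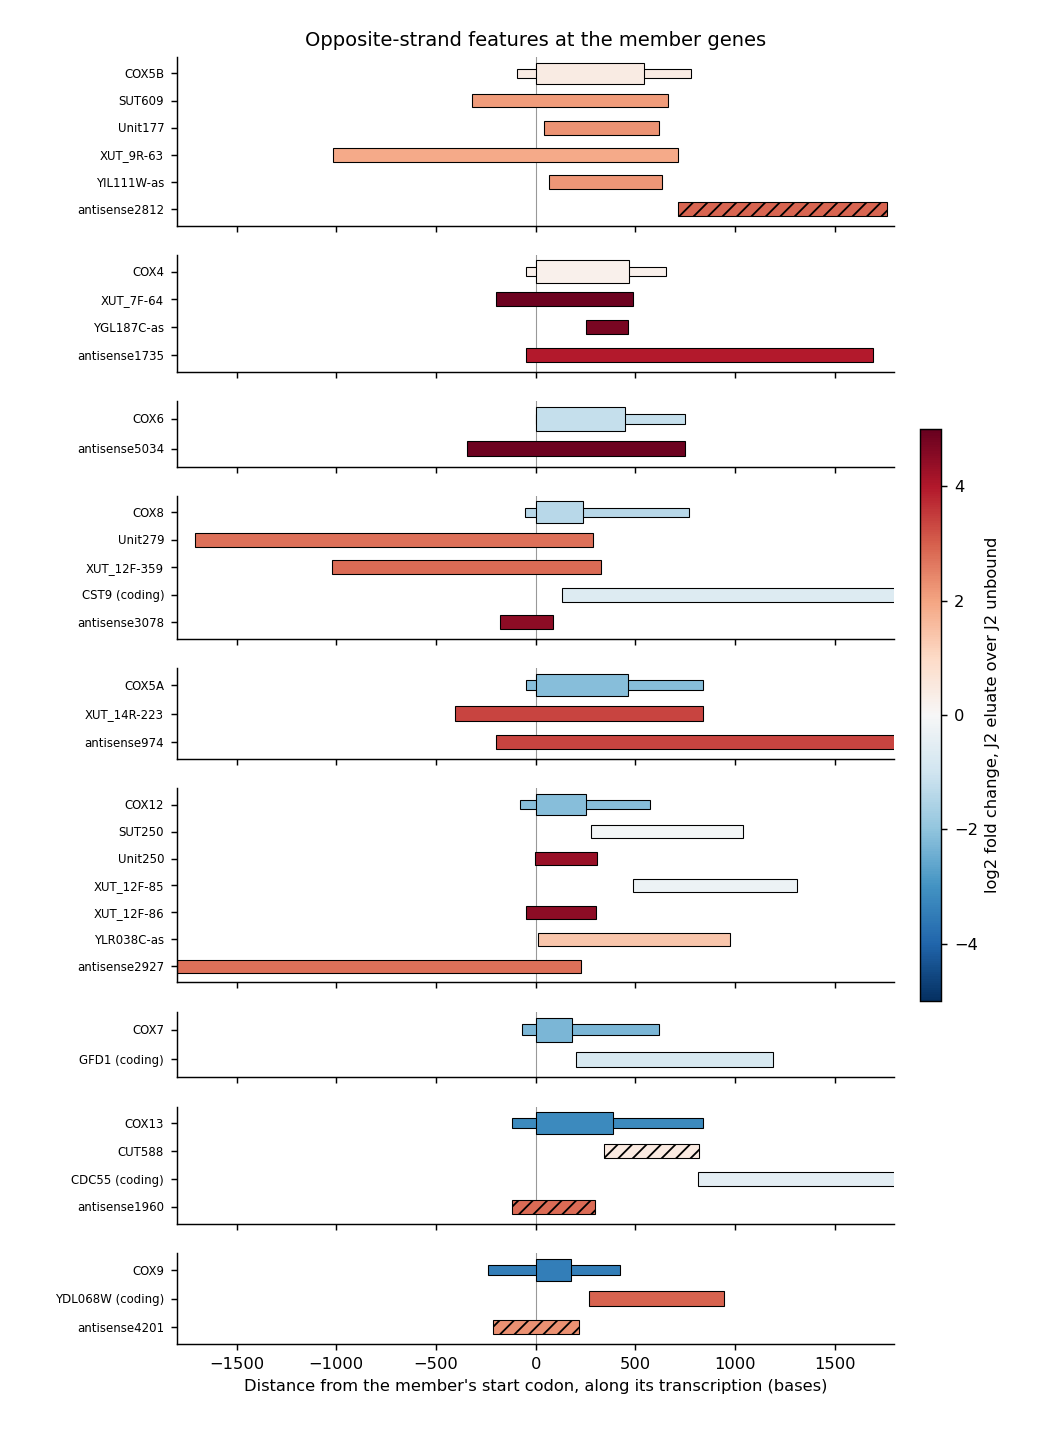
Each member gene (top bar of a panel, coding part thick, intron of COX5B included) and every feature annotated on the opposite strand, drawn to scale by distance from the start codon in bases and cut at the edges of the panel. Colour gives the log2 fold change, J2 eluate over J2 unbound, and hatching marks features at a mean of 40 or below. The opposite-strand bars at COX4 and COX6 reach 4.89 and 4.91, and those at COX5B range between 1.91 and 2.23 among the unhatched bars.

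The ratio of the 2 strands within a library was then compared for the pairs in which the overlap made up at least 0.5 of either feature and the opposite-strand feature had a mean above 40. This held for 14 non-coding features, opposite COX4, COX5A, COX5B, COX6, COX8 and COX12, and for 2 coding ones. In 16 of 16 pairs, the ratio of the opposite-strand feature to the member in each of the 3 eluates exceeded that in each of the 3 unbound libraries, as it was in 84.5% of the 4126 such pairs of a nuclear mRNA and a non-mRNA feature in the table. Features that passed the mean through the eluates alone had to have this direction, so the count is a description. Among pairs whose opposite-strand feature had an unbound mean above 40, it held for 7 of 7 (5 non-coding, of which 4 lay at COX5B and 1 at COX12, and GFD1 and CST9), beside 74.4% of such non-coding pairs in the table, and with no filter on that feature for 19 of 19. Both counts were added after the data were seen. For the unfiltered count no share over the table was computed, so it is a description only. Among its added pairs, antisense4201 and antisense1960 had between 0 and 3 reads in each unbound library. Among the 14 non-coding features the log2 difference ran from 1.49 for XUT_9R-63 over COX5B to 6.60 for XUT_12F-86 over COX12, that is 2.82 to 96.7 times, and the median over all such pairs in the table was 2.98. Each pair had an exact two-sided permutation p of 0.1, also after adjustment over the 16 pairs, the smallest the design allows.

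**Figure D5:**
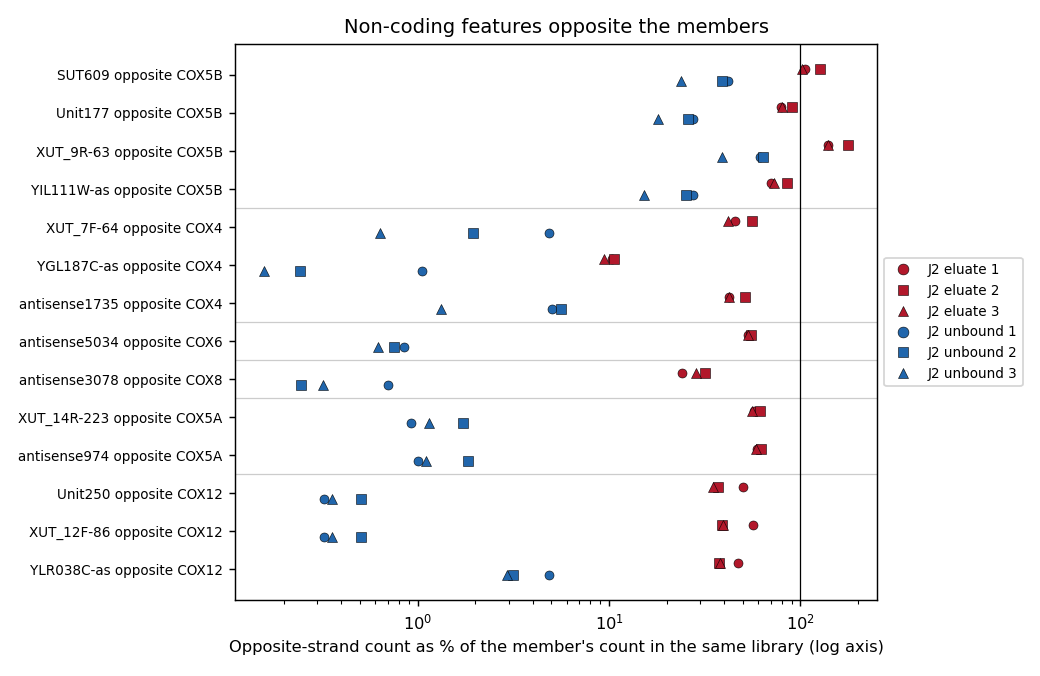
Count of each paired non-coding feature as a percentage of the count of its member in the same library (log axis), for J2 eluates (red) and J2 unbound libraries (blue). Counts are of whole features and are not scaled by length. In the eluates the points lie between 9.44% (YGL187C-as) and 177% (XUT_9R-63), and in the unbound libraries COX5B alone has points above 5.62%.

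GFD1, whose gene overlaps 413 bases of COX7 outside its coding sequence, had 380, 316 and 519 normalised counts in the eluates, against 666, 590 and 875 in the unbound libraries, and was reduced with a log2 fold change of -0.82 (limma, SE 0.231, adjusted p = 0.00926). CST9, over 637 bases of COX8, was reduced with -0.69 (limma, SE 0.217, adjusted p = 0.0154), and CDC55, over 21 bases of COX13, with -0.51 (limma, SE 0.205, adjusted p = 0.0462) although its groups overlapped. The sign of these neighbours turned with the scaling. With the total count GFD1 was at 0.10, CST9 at 0.22 and CDC55 at 0.41, where CDC55 was called enriched (limma, adjusted p = 0.040). With factors from nuclear mRNAs all were called enriched, GFD1 at 0.50, CST9 at 0.63 and CDC55 at 0.82 (limma, adjusted p = 0.0429, 0.0166 and 0.00163). YDL068W, over 157 bases of COX9, had 100, 63.6 and 71.5 in the eluates, against 8.93, 7.09 and 11.6 in the unbound libraries. The log2 fold change of YDL068W was 2.96 (limma, SE 0.345, adjusted p = 3.45e-05). Its unbound values rest on 6, 4 and 9 reads. YDL068W passed the filter on the mean only through the eluates and had to be higher there, so its fold change and p-value are descriptions only. Along the strand of COX9, CBS1, an activator of cytochrome b translation, shares 1 base with it and was enriched at 1.63 (limma, SE 0.233, adjusted p = 0.000144). VPS33, which shares 1 base with COX8 on the same strand, was at -0.09 (limma, SE 0.165, adjusted p = 0.635). It was at 0.08 with TMM factors and was called enriched with the total count, at 0.83 (limma, adjusted p = 0.00373), and with factors from nuclear mRNAs, at 1.23 (limma, adjusted p = 8.22e-05).

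The remaining genes of the complex and its partners were examined as named lists. Of the mitochondrially encoded core subunits, COX1 was enriched, with 228640, 171887 and 50339 normalised counts in the eluates, against 51442, 45930 and 33864 in the unbound libraries. Its log2 fold change was 1.54 (limma, SE 0.503, adjusted p = 0.0187), with eluate 3 within the range of the unbound libraries, and the call was lost without eluate 1, without eluate 2 or without unbound 3. COX2 had 33988, 26182 and 16097 in the eluates, against 28141, 24724 and 12936 in the unbound libraries, and COX3 had 33308, 21695 and 11246 in the eluates, against 20580, 17791 and 11616 in the unbound libraries. For both the groups overlapped, with log2 fold changes of 0.22 (limma, SE 0.353, adjusted p = 0.582) and 0.31 (limma, SE 0.377, adjusted p = 0.471). None of the mitochondrially encoded core mRNAs was reduced.

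Of 32 assembly and translation factors of the oxidase, 24 were reduced and 3 enriched, and the median log2 fold change was -1.26. COX17, the copper chaperone that delivers copper to the enzyme, was lowest at -3.87 (limma, SE 0.237, adjusted p = 6.71e-07), with 52.1, 33.3 and 39.2 normalised counts in the eluates, against 663, 668 and 510 in the unbound libraries. PET100, a chaperone for assembly of the enzyme, was highest at 2.90 (limma, SE 0.172, adjusted p = 5.6e-07), with 2537, 2078 and 2512 in the eluates, against 342, 275 and 332 in the unbound libraries. Of 9 accessory subunits and regulators, 7 were reduced and 1 enriched (median -1.83), from HAP2, a subunit of the HAP complex, at -2.74 to the haem-responsive activator HAP1 at 0.83.

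The partner complexes were next. In the bc1 complex with cytochrome c, which hands electrons to the oxidase, 8 of 11 mRNAs were reduced and 1 enriched (median -1.83), with QCR8 at -3.71 and the cytochrome c1 mRNA CYT1 at 0.98, a call that was lost without unbound 1. Among 16 nuclear mRNAs for ATP synthase and its inhibitor, 12 were reduced and 1 enriched (median -2.40), with ATP15 at -3.87 and ATP17 at 1.44 (limma, SE 0.171, adjusted p = 4.01e-05). The shares of reduced mRNAs in these lists stood against 74.7% of all nuclear mRNAs.

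The nuclear mRNAs whose profile over the 6 libraries lay nearest to the mean profile of the members, by Euclidean distance of centred log2 values among 5694 mRNAs, were YFR006W (0.200), YGL006W-A (0.212), MIT1 (0.221), ZTA1 (0.229) and RIB1 (0.233). Of the members themselves, COX8 was nearest (0.447) and COX5B farthest (2.57). The log2 fold changes of the 5 nearest mRNAs ran from -1.71 for YGL006W-A to -1.65 for MIT1.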

How the data were processed

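The members and the related gene lists were chosen with earlier results of these data known. Per the study's methods, single 50-base reads were aligned with STAR to sacCer3 and counted with featureCounts (Subread 1.5.0-p1) over Ensembl genes extended by untranslated regions, CUTs, SUTs and XUTs, and the authors deposited a normalised count signal, that is counts divided by 1 DESeq2 (1.24.0) size factor per library. The library kit, named as TruSeq RNA Sample Prep Kit v2, does not mark strand in its standard protocol. The strand setting of the counting is not given in the sources used here, and the counts of the strands at COX12 were nevertheless kept apart, so which protocol was followed remains unknown. The authors also deposited log2 fold changes and p-values of their own comparison and group means, none of which were used.

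The 47860 lines were collapsed to 15753 features. Low values in each column were whole multiples of a step, and 100% of values gave whole reads (tolerance 0.005). Recovered size factors ran from 0.565 (unbound 2) to 2.03 (eluate 1). A floor of 3 counts corresponds to between 1.47 and 5.31 normalised counts.

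limma 3.58.1 in R 4.3.3 (lmFit, eBayes with trend) was fitted to log2(normalised count + 1) of all features, with Benjamini-Hochberg adjustment over all of them, and calls were read at a mean normalised count above 40. Fold changes on this scale understate the change of low features. edgeR 4.0.16 and DESeq2 1.42.0 were run on the recovered reads as alternatives, where edgeR called 3766 features enriched and 4602 reduced. The main limma fit and the edgeR and DESeq2 fits were tested on simulated data without pairs. The fits with a replicate block, with other scalings or without a library were not simulated. Same-numbered eluate and unbound libraries deviated together over features (r = 0.23, 0.32 and 0.30), so the numbers were treated as pairs in the fit with a replicate block. The text names all members, every feature overlapping one (values for those above the mean), the highest and lowest called gene of each other list, and the 5 nearest profiles. Coding ends of 9 of 9 members equalled those of RefSeq R64, from which sequences were read.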

Additional observations from a re-analysis of the deposited data

Results flagged for a closer look

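Among features opposite a member, 4 had a mean normalised count of 40 or below and stayed out of the calls, and all had higher values in every eluate than in any unbound library. antisense2812, which touches the end of COX5B, averaged 53.1 ± 35.2 normalised counts in the eluates and 6.73 ± 5.06 in the unbound libraries (SD, n = 3 each). antisense1960, opposite COX13, averaged 16.2 ± 1.03 in the eluates and 1.88 ± 1.94 in the unbound libraries, and antisense4201, over the whole coding sequence of COX9, averaged 9.83 ± 2.59 in the eluates and 1.61 ± 1.79 in the unbound libraries (SD, n = 3 each). For both of these the unbound means lie below the floor of 3 counts. CUT588, opposite COX13, averaged 38.5 ± 3.68 in the eluates and 28.3 ± 6.47 in the unbound libraries (SD, n = 3 each). Among all features other than mRNAs above the mean of 40, which is an unlike set, 69.7% had the same separation. The share among those at or below that mean was not computed.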

How the results depend on the processing

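Of 510 values under alternatives, 466 kept their direction and call or, for counts, stayed near the main value. Near was taken loosely for counts. With the total count it took in members reduced going from 7 to 5 and features enriched going from 3520 to 4802. For the ratios within a library the exact p cannot fall under 0.05, so their call could not change and only their direction was open. Counts of features went to 4802 enriched and 3074 reduced with the total count, to 5689 and 2354 with factors from nuclear mRNAs, and to 6101 enriched without a filter on the mean, against 3520 and 4891. Members enriched were 2 under both scalings and 1 with the replicate block (COX5B, 0.42). On the log2 scale, total-count scaling gave 1.33 for COX5B, 1.18 for COX4, -0.27 for COX6 and -0.45 for COX8, and mRNA scaling gave 1.74, 1.58, 0.13 and -0.048. In the lists, total-count and mRNA scaling gave 7 and 11 enriched and 14 and 8 reduced assembly factors, 2 and 3 enriched and 5 and 3 reduced mRNAs of the bc1 complex and cytochrome c, 3 enriched mitochondrially encoded subunits under each, and 2 enriched regulators and 2 enriched ATP synthase mRNAs under each, with 4 reduced regulators under mRNA factors. TMM factors and edgeR gave 5 enriched assembly factors. The replicate block changed no call of a member other than that of COX5B, and for ratios within pairs of libraries the smallest possible exact p is 0.25.

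When each library was left out in turn, members enriched ranged from 0 to 2, COX4 from -0.045 (without unbound 2, -0.026) to 0.85, COX5B from 0.16 to 0.77, enriched mitochondrially encoded subunits from 0 to 1, regulators from 1 to 2 and the bc1 complex with cytochrome c from 0 to 1. With 3 libraries a group, no exact test of a ratio can fall below 0.1. In the unbound libraries several asRNAs rest on fewer than 10 reads, so their fold changes depend on the pseudocount. With any overlap of at least 1 base accepted, the antisense to sense ratio separated the groups in 23 of 23 pairs. No share over the table was computed for such pairs. Some of these features passed the mean only through the eluates, and several can hold the same reads, so the count is a description only. With an unbound mean above 40 required of the opposite-strand feature, a choice made after the data were seen, the ratio separated the groups in 7 of 7, as fewer pairs were tested.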
